A study of Mus musculus with 48 samples.

Results

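Cholesterol synthesis enzymes were followed in mouse liver as a group of 9 genes chosen by name: Hmgcs1, Idi1, Fdps, Fdft1, Sqle, Lss, Cyp51, Sc5d and Dhcr7. The choice was made with earlier results of these data known. Of these 9, 8 were matched to the deposited table of 37583 genes. Hmgcs1 was not matched by name, synonym or identifier and was not analysed here for RNA or binding. The series holds 48 liver samples of F1 mice (C57Bl6/CBA). RNA was sequenced from 3 livers of C/EBPa lox/lox / Alfp-Cre mice, 2 of HNF4a lox/lox / Alfp-Cre mice and 3 wild-type (WT) livers. Both knockouts (KO) use Cre from the Alfp promoter, which acts in the hepatocyte and bile duct lineage, so other liver cells keep the gene. The sample labels give 60 days after birth for the RNA livers and the text of the series gives embryonic day 18.5, so the age of the RNA is uncertain. Nothing says whether the RNA replicates came from separate animals, and p-values measure the spread between these libraries. Binding of C/EBPα and HNF4α, hepatocyte transcription factors (genes Cebpa and Hnf4a), was mapped in wild-type livers by chromatin immunoprecipitation with sequencing, in 2 replicates at each stage from E15.5 and E18.5 (days of gestation) to P0.5, P14 and P60 (days after birth). The labels give male mice, and diet is given as standard chow or high-fat, without assignment to samples.

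Cholesterol is built from acetyl-CoA through mevalonate, isoprenoid units, squalene and lanosterol, and the liver is one of its main sites of synthesis. The genes of the pathway are known to be switched together by the transcription factor SREBP-2, encoded by Srebf2, which is held in the endoplasmic reticulum by Insig proteins when sterols are plentiful. SREBP-2 binds sterol regulatory elements (SRE) in promoters, often beside CCAAT boxes bound by the factor NF-Y.

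RefSeq promoters of build GRCm38.p6, from 250 bases before to 50 bases after a gene's start, were matched for 6 of the 9 enzymes: Hmgcs1, Idi1, Lss, Cyp51, Sc5d and Dhcr7. The 4 shown belong to the enzymes on which the results below turn: Cyp51 and Dhcr7 for binding, Sc5d and Lss for RNA. Capitals mark matches, on either strand, to TTGCNNAA (a C/EBP motif), ATTGC (an arm of the C/EBP site), CAAAGNNCA (HNF4), TCACNCCAC (SRE) and CCAAT (NF-Y). ATTGC can overlap TTGCNNAA. Dhcr7 has 3 RefSeq starts, of which the first is shown.
Cyp51, chr5:4104648-4104947, minus strand: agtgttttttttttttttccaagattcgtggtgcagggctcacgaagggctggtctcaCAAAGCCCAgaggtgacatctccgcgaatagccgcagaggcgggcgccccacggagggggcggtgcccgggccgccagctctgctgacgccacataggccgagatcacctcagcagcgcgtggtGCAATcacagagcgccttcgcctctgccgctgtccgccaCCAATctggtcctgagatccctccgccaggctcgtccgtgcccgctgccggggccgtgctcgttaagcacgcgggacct
Sc5d, chr9:42264251-42264550, minus strand: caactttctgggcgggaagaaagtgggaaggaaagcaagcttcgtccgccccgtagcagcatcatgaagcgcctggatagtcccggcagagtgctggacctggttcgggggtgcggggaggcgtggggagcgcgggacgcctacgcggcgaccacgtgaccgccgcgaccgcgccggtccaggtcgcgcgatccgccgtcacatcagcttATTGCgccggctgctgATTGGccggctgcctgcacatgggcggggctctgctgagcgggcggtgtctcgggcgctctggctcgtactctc
Lss, chr10:76531355-76531654, plus strand: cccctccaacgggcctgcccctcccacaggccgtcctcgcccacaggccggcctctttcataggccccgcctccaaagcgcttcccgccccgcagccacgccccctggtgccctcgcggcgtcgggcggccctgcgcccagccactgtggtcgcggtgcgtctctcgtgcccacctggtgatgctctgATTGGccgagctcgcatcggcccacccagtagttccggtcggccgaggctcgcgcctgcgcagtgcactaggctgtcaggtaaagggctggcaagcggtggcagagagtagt
Dhcr7, chr7:143822917-143823216, plus strand: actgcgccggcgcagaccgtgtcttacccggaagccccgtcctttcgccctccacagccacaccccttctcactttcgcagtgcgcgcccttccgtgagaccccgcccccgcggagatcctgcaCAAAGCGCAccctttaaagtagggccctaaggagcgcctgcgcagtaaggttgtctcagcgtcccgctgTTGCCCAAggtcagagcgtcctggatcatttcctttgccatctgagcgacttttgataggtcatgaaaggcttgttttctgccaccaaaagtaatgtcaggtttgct

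CCAAT stood in all 6 matched enzymes, for Dhcr7 at another start than that shown, and in 37.4% of all 32851 promoters. An enzyme counted if any of its starts held a match, while the shares of all promoters count each promoter singly. The SRE letters stood only in Hmgcs1, once, among the 6, and in 1.24% of all promoters. TTGCNNAA stood only in Dhcr7 (10.8% of all promoters), ATTGC in Idi1, Cyp51 and Sc5d (26.4%), and the HNF4 letters in Cyp51 and Dhcr7 (6.36%). A match is a description of letters, and these windows are of another build than the peaks, so the 2 were not laid over each other.

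Values are whole-number reads scaled between libraries by the submitters, called normalised reads here, and summed to 13448347 to 25992243 per library. Cebpa was at 6.93% of the WT mean in C/EBPα KO livers (adjusted p = 0.000413 by limma, Benjamini-Hochberg) and Hnf4a at 26.6% of the WT mean in HNF4α KO livers (adjusted p = 0.033). Each gene was also below the WT mean in the other knockout, where neither difference passed. Hnf4a was at 45.9% in C/EBPα KO livers (adjusted p = 0.188, limma) and Cebpa at 50.1% in HNF4α KO livers (adjusted p = 0.299, limma). Hnf4a had 2492, 2530 and 4510 normalised reads in C/EBPα KO livers, and 1238 and 2444 in HNF4α KO livers. HNF4α KO replicate 1 stands apart: its 9 skeletal muscle markers summed to 600807 normalised reads, against 243 in HNF4α KO replicate 2 and 70 to 181 in WT livers. The labelled tissue was checked with 7 hepatocyte markers, none at 0 in any library; their sum was 328307 to 1192893 in C/EBPα KO, 846187 to 1354543 in HNF4α KO and 2640630 to 4257275 in WT livers. In bulk RNA, fewer hepatocytes and less RNA per hepatocyte cannot be told apart.

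In HNF4α KO livers 7 of the 8 enzymes had estimates below WT, from the isoprenoid to the late sterol steps, and 2 of 8 passed the test. Sc5d, the sterol desaturase that makes 7-dehydrocholesterol, was 5.09-fold lower, and Lss, lanosterol synthase, which closes the sterol ring, was 3.91-fold lower. In 6 of 8 enzymes every HNF4α KO library was below every WT library, against 22.4% of the 17771 genes tested. The exceptions were Sqle, whose groups overlapped, and Dhcr7. The summed level of the 8 enzymes was 5991 and 6413 normalised reads in HNF4α KO livers, against 11348, 11035 and 14000 in WT livers.

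Idi1, which interconverts isopentenyl and dimethylallyl diphosphate (chromosome 13, 8884747 to 8891697, mm9), had 571 and 730 normalised reads in HNF4α KO livers, against 1255, 1295 and 1653 in WT livers. Fdps, farnesyl diphosphate synthase (chromosome 3, 88897514 to 88905881), had 572 and 665 in HNF4α KO livers, against 1632, 1442 and 1152 in WT livers. The 2 KO libraries were below all WT libraries in both genes, but neither difference passed: log2 -1.11 ± 0.34 (standard error, SE) for Idi1 (adjusted p = 0.0954) and -1.18 ± 0.34 for Fdps (adjusted p = 0.0798, limma, as for all adjusted p here). Fdft1, squalene synthase, which joins farnesyl units (chromosome 14, 63763990 to 63796630), had 1155 and 1136 in HNF4α KO livers, against 1316, 2031 and 1547 in WT livers, a difference of -0.49 ± 0.37 (adjusted p = 0.481). Fdft1 overlaps Ctsb on the other strand, and whether counting used the strand is not given in the sources used here.

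Sqle, squalene epoxidase, a rate-limiting enzyme of the sterol branch (chromosome 15, 59146632 to 59162747), had 924 and 914 in HNF4α KO livers, against 1520, 918 and 2080 in WT livers. WT replicate 2 was as low as the KO libraries, and the difference of -0.63 ± 0.38 did not pass (adjusted p = 0.368). Lss (chromosome 10, 75994333 to 76019883) had 476 and 432 in HNF4α KO livers, against 2004, 988 and 2825 in WT livers, a fall of -1.97 ± 0.47 (adjusted p = 0.0368, n = 2 and 3 libraries). The WT libraries of Lss spread widely, yet all lay above both KO libraries. Cyp51, lanosterol 14-alpha-demethylase (chromosome 5, 4081145 to 4104746), had 470 and 625 in HNF4α KO livers, against 1057, 1552 and 1269 in WT livers (-1.23 ± 0.33, adjusted p = 0.0615). Cyp51 therefore missed the threshold with groups that did not overlap.

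Sc5d (chromosome 9, 42062260 to 42072383) had 201 and 415 in HNF4α KO livers, against 1257, 1303 and 1954 in WT livers. Both KO libraries were far below every WT library, a fall of -2.35 ± 0.39 (adjusted p = 0.00587). Dhcr7, 7-dehydrocholesterol reductase, which makes cholesterol itself (chromosome 7, 151009050 to 151034315), had 1622 and 1496 in HNF4α KO livers, against 1307, 1506 and 1520 in WT livers. Its groups overlapped, with a difference of 0.11 and a 95% interval from -0.63 to 0.86 (adjusted p = 0.875), so a similar level was not shown.

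**Figure D1:**
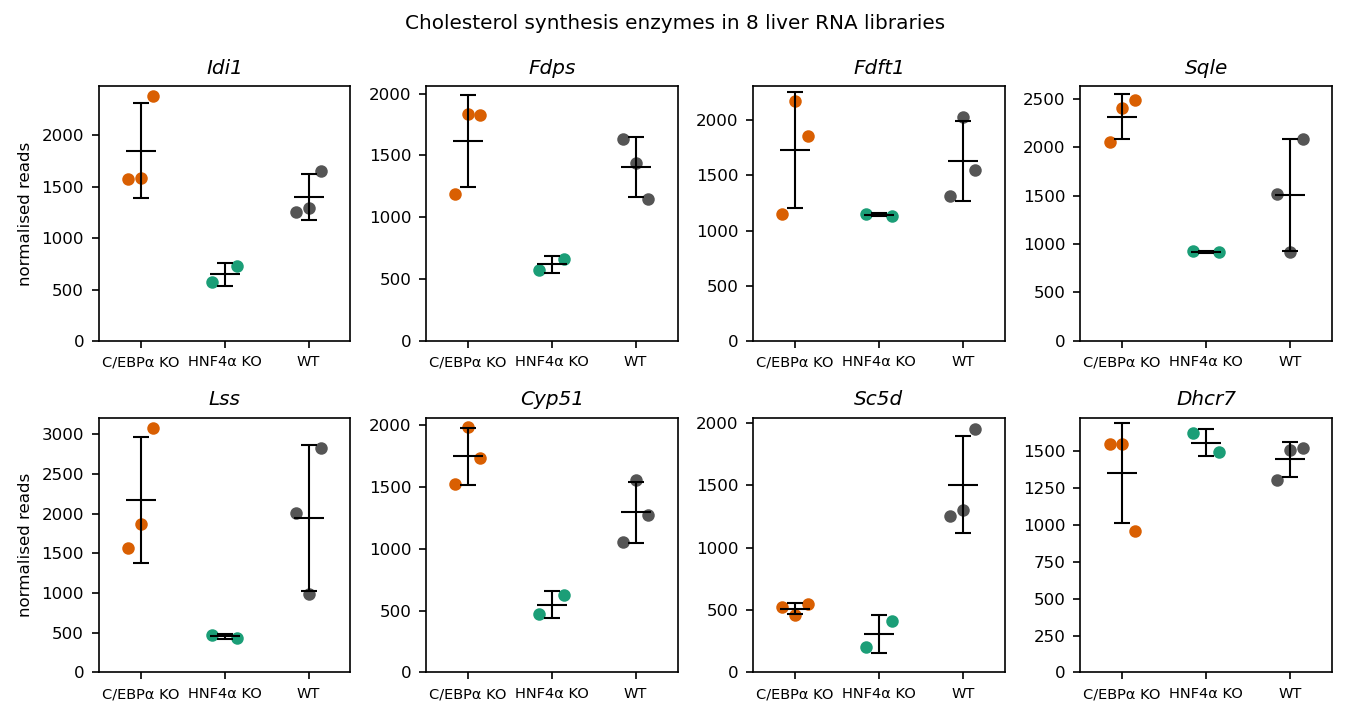
Normalised reads (y axes, from 0) of the 8 measured enzymes in C/EBPα KO, HNF4α KO and WT livers. Points are libraries, horizontal bars means and error bars SD (n = 3, 2 and 3); every knockout point of Sc5d lies below every WT point, and the HNF4α KO points of Idi1, Fdps, Lss and Cyp51 lie below all other points.

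The 2 calls of 8 compare with 3.17% of all genes called lower and 1.54% called higher in HNF4α KO livers, and the median difference was -1.14 over the 8 enzymes and 0.02 over all genes. The Lss call ended in fits without WT replicate 1 or 3 or either HNF4α KO replicate (adjusted p up to 0.254), and the Sc5d call ended without HNF4α KO replicate 1 (-1.83, adjusted p = 0.121). Where 1 HNF4α KO library was left, it was assumed to vary like the other groups. The rank correlation of gene GC content with a library's log2 deviation was 0.36 and 0.33 in HNF4α KO. In WT it was -0.11, -0.01 and -0.49, and in C/EBPα KO -0.32, -0.098 and 0.28, so it also varied within these genotypes. With a GC curve removed, Fdps passed (-1.53, adjusted p = 0.0152), Sc5d (-2.20) and Lss (-2.19) still passed, and Cyp51 (-0.83) and Idi1 (-0.59) were nearer to 0. Of other cell types, 8 erythroid markers summed to 2385875 to 3770286 in HNF4α KO and 651386 to 2130742 in WT livers, none called. Stellate and fibroblast markers summed to 33260 to 90902 in HNF4α KO and 10246 to 15890 in WT (Col1a1 and Col1a2 called, of 7), and macrophage markers to 24169 to 28752 in HNF4α KO and 12905 to 15380 in WT (Cd68 called, of 7). The 6 endothelial markers summed to 9234 to 9878 in HNF4α KO and 5993 to 7307 in WT, none called. The part of these cells in the enzyme levels was not tested. Without HNF4α KO replicate 1, the library with muscle RNA, the log2 differences were -2.04 for Lss, -1.07 for Fdps, -1.03 for Cyp51 and -0.93 for Idi1, and none of the 8 enzymes passed.

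C/EBPα KO livers differed from WT in 1 of these 8 enzymes. Sc5d was 2.88-fold lower, with 527, 463 and 547 normalised reads in C/EBPα KO livers, against 1257, 1303 and 1954 in WT livers. All 3 KO libraries were below all WT libraries (-1.53 ± 0.35, adjusted p = 0.0346, n = 3 each). The other 7 enzymes overlapped between the groups, and 6 of them had an estimate above 0.

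Sqle had the highest of these estimates, with 2050, 2407 and 2490 in C/EBPα KO livers, against 1520, 918 and 2080 in WT livers (0.69 ± 0.34, adjusted p = 0.398). Cyp51 had 1522, 1983 and 1733 in C/EBPα KO livers, against 1057, 1552 and 1269 in WT livers (0.44 ± 0.30, adjusted p = 0.585). Idi1 had 1580, 1587 and 2389 in C/EBPα KO livers, against 1255, 1295 and 1653 in WT livers (0.39 ± 0.31, adjusted p = 0.661). In these 3 genes most KO libraries were in the upper part of the WT range or above it, which the test did not separate from the spread. Lss had 1570, 1872 and 3076 in C/EBPα KO livers, against the WT values above (0.23, 95% interval -0.68 to 1.15). Fdps had 1189, 1839 and 1827 (0.19, interval -0.49 to 0.86) and Fdft1 1153, 2177 and 1862 (0.06, interval -0.67 to 0.79) in C/EBPα KO livers. Dhcr7 had 1551, 1547 and 961 in C/EBPα KO livers, where replicate 3 alone was low (-0.13, interval -0.79 to 0.54). The intervals are wide, so similar levels were not shown.

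Over all genes 2.86% were called lower and 0.883% higher in C/EBPα KO livers, and the median difference was 0.21 over the 8 enzymes and 0.03 over all genes. The Sc5d call ended without any 1 of WT replicates 1 to 3 or C/EBPα KO replicates 1 and 2 (adjusted p 0.0878 to 0.128). Scaled to library totals, which moved the median of all genes to 0.53, the Sc5d difference was -1.02 (adjusted p = 0.169) and that of Dhcr7 turned to 0.38; the share of all calls that were lower was then 40.6%, against 76.4% with the deposited scaling. Bile duct markers moved with this genotype, with sums of 8681 to 10715 in C/EBPα KO and 1241 to 2622 in WT livers and 4 of 7 called higher, and their part in these values was not tested.

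Set against each other, C/EBPα KO livers had higher levels than HNF4α KO livers in 7 of 8 enzymes by estimate, and 3 passed the test. Lss was 4.59-fold higher in the C/EBPα KO (log2 2.20 ± 0.47, adjusted p = 0.0288), Cyp51 3.20-fold (1.68 ± 0.33, adjusted p = 0.0206) and Idi1 2.81-fold (1.49 ± 0.34, adjusted p = 0.0393). Fdps (1.36 ± 0.34, adjusted p = 0.0575) and Sqle (1.33 ± 0.38, adjusted p = 0.0905) missed the threshold. In 6 of 8 enzymes every C/EBPα KO library was above every HNF4α KO library, against 17.4% of all genes; Fdft1 and Dhcr7 overlapped. Cell type markers also differed between the knockouts. Of 7 bile duct markers 3 were called higher in the C/EBPα KO (sums of 8681 to 10715 in C/EBPα KO and 2229 to 2539 in HNF4α KO livers), and so was 1 of 7 hepatocyte markers. Called lower in the C/EBPα KO were 2 of 7 stellate and fibroblast markers (sums of 8924 to 19029 in C/EBPα KO and 33260 to 90902 in HNF4α KO livers), 1 of 7 macrophage markers (4894 to 20299 in C/EBPα KO and 24169 to 28752 in HNF4α KO livers) and 1 of 9 muscle markers. Their part in the enzyme differences was not tested.

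Sc5d, low in both knockouts against WT, had 527, 463 and 547 in C/EBPα KO livers and 201 and 415 in HNF4α KO livers (0.82 ± 0.39, adjusted p = 0.289), a difference with a 95% interval from -0.04 to 1.68. Over all genes 1.61% were called higher and 1.87% lower in this comparison, and the median was 1.34 over the 8 enzymes and 0.00 over all genes. The Cyp51 call ended without C/EBPα KO replicate 1 or either HNF4α KO replicate (adjusted p 0.0548 to 0.282). The Lss call ended without WT replicate 1, C/EBPα KO replicate 1 or either HNF4α KO replicate (up to 0.224), and that of Idi1 without any 1 library except C/EBPα KO replicates 2 and 3 (up to 0.423). With a GC curve removed Fdps passed (1.62, adjusted p = 0.0144) and Idi1 did not (1.14, adjusted p = 0.127). Scaled to library totals, which moved the median of all genes to 0.57, 5 of the 8 enzymes passed, and 21.1% of all calls were lower in place of 53.6%.

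**Figure D2:**
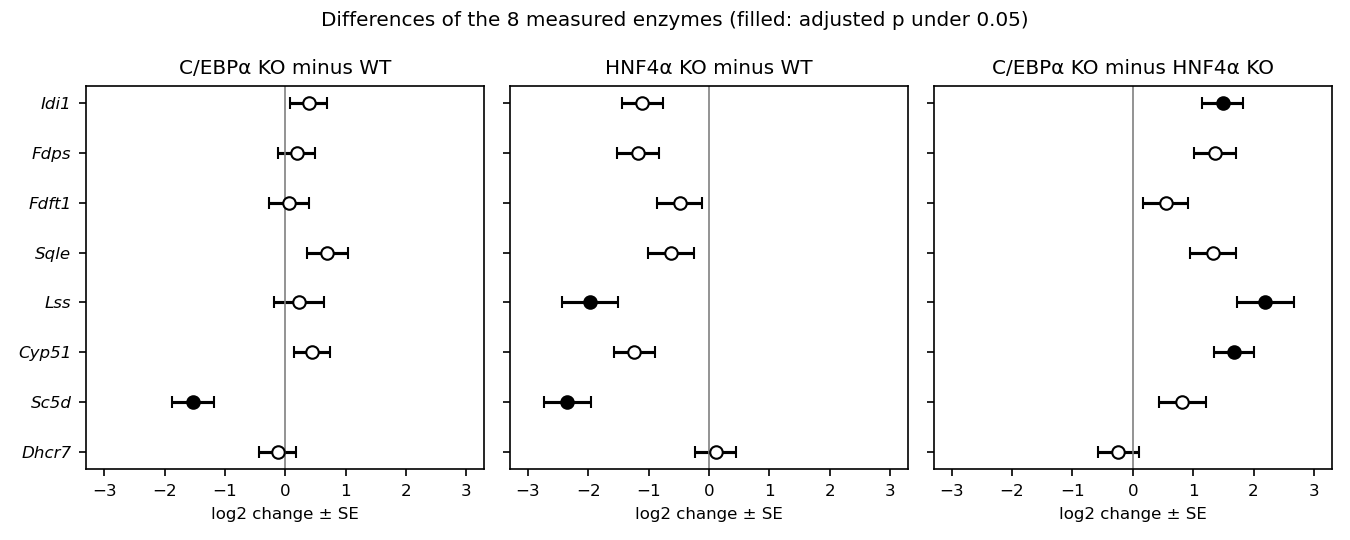
Log2 differences (x axes, log2 of normalised reads + 1) with SE for the 8 measured enzymes in 3 comparisons. Filled points passed an adjusted p of 0.05: Sc5d in the first panel, Lss and Sc5d in the second, Idi1, Lss and Cyp51 in the third.

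Other enzymes of the pathway, a list of 13 that includes Acat2, had no call in any of the comparisons by limma. An unadjusted p under 0.05 (limma) was found for 3, 3 and 2 of the 13, and for 2562, 3657 and 3314 of all 17771 genes. The median over the 13 was -0.22 for C/EBPα KO minus WT, -0.69 for HNF4α KO minus WT and 0.68 for C/EBPα KO minus HNF4α KO. Together with the 8 measured members, 18 of 21 enzymes had an estimate below 0 in HNF4α KO minus WT, as did 8776 of 17771 genes, and 12 of 21 had both HNF4α KO libraries below all WT libraries, against 22.4% of all genes.

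Of 25 genes of sterol regulation and transport, 5 fell in C/EBPα KO livers against WT, where 2.86% of all genes were called lower. In HNF4α KO livers 2 of the 25 fell and none rose, where 3.17% of all genes were called lower and 1.54% higher. Between the knockouts 1 was higher and 2 were lower in the C/EBPα KO, where 1.61% of all genes were called higher and 1.87% lower. The median over the 25 was -0.59, -0.32 and -0.37 in these comparisons, against 0.03, 0.02 and 0.00 over all genes. Abcg5 and Abcg8, which together export sterols into bile, were at 3, 1 and 3 and at 5, 3 and 2 normalised reads in C/EBPα KO livers, against 122, 73 and 260 and 200, 101 and 309 in WT livers. These falls were -5.39 ± 0.91 (adjusted p = 0.00655) and -5.48 ± 0.64 (adjusted p = 0.000629), sizes that depend on the 1 added before the log. In HNF4α KO livers Abcg5 was at 19 and 1 (-4.40 ± 1.02, adjusted p = 0.034) and Abcg8 at 56 and 23 (-2.32 ± 0.72, adjusted p = 0.0951). The annotated spans of Abcg5 and Abcg8 overlap on opposite strands (chromosome 17, 85057574 to 85082351 and 85075642 to 85099673), so their reads may not be separable.

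Among cholesterol esterification enzymes, Soat2, the acyltransferase of hepatocytes, had 820, 817 and 675 normalised reads in C/EBPα KO livers, 72 and 111 in HNF4α KO livers and 325, 348 and 375 in WT livers, with no overlap among the groups. It fell in HNF4α KO livers (-1.95 ± 0.36, adjusted p = 0.00988) and was 8.50-fold higher in C/EBPα KO than in HNF4α KO livers (3.09 ± 0.36, adjusted p = 0.00182), while C/EBPα KO minus WT did not pass (1.14 ± 0.32, adjusted p = 0.0871). Soat1, the more widely expressed acyltransferase, had 457, 216 and 534 in C/EBPα KO livers, against 1474, 2136 and 1087 in WT livers (-2.00 ± 0.41, adjusted p = 0.0206). Lcat, the plasma enzyme that esterifies cholesterol in lipoproteins, had 1069, 845 and 1917 in C/EBPα KO livers, against 4550, 3319 and 3227 in WT livers (-1.60 ± 0.36, adjusted p = 0.032).

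Insig2, which holds SREBP-2 back, had 192, 237 and 141 in C/EBPα KO livers, against 561, 490 and 529 in WT livers (-1.50 ± 0.34, adjusted p = 0.0322). Insig1 had 845, 342 and 3137 in C/EBPα KO livers, 766 and 1463 in HNF4α KO livers and 2722, 2055 and 7403 in WT livers, a spread too wide to pass (adjusted p = 0.253 and 0.261 against WT). Srebf2 had 2118, 1456 and 3032 in C/EBPα KO livers, 2206 and 2917 in HNF4α KO livers and 2152, 1684 and 1643 in WT livers, with no call. Abcg1, an exporter of cholesterol to lipoproteins, had 241, 212 and 265 in C/EBPα KO livers and 590 and 997 in HNF4α KO livers (-1.68 ± 0.37, adjusted p = 0.0347), against 274, 346 and 387 in WT livers. Abcg8 was also lower in C/EBPα KO than in HNF4α KO livers (-3.15 ± 0.72, adjusted p = 0.0384). Npc1l1, a sterol uptake protein, had 33, 18 and 8 in C/EBPα KO livers and was listed at 0 in every HNF4α KO and WT library. It was kept for testing only through its C/EBPα KO values, so it is given as values and its call is left out of the counts above. The list of 25 and the medians over it still include Npc1l1.

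The calls of Abcg8 in C/EBPα KO against WT and of Soat2 between the knockouts held in every fit that left out 1 library. Those of Insig2, Lcat and Soat1 in C/EBPα KO against WT ended without WT replicate 1 (adjusted p = 0.176, 0.187 and 0.0946) and in other such fits. Scaled to library totals these 3 also missed the threshold (adjusted p = 0.161, 0.102 and 0.0805), and Soat2 passed in C/EBPα KO against WT (1.65, adjusted p = 0.0325). Soat2 in HNF4α KO against WT ended without HNF4α KO replicate 1 (adjusted p = 0.17), Abcg5 there without WT replicate 1 or 3 or HNF4α KO replicate 2 (up to 0.197), and the Abcg1 and Abcg8 calls between the knockouts without either HNF4α KO replicate, among others (up to 0.237 and 0.439).

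**Figure D3:**
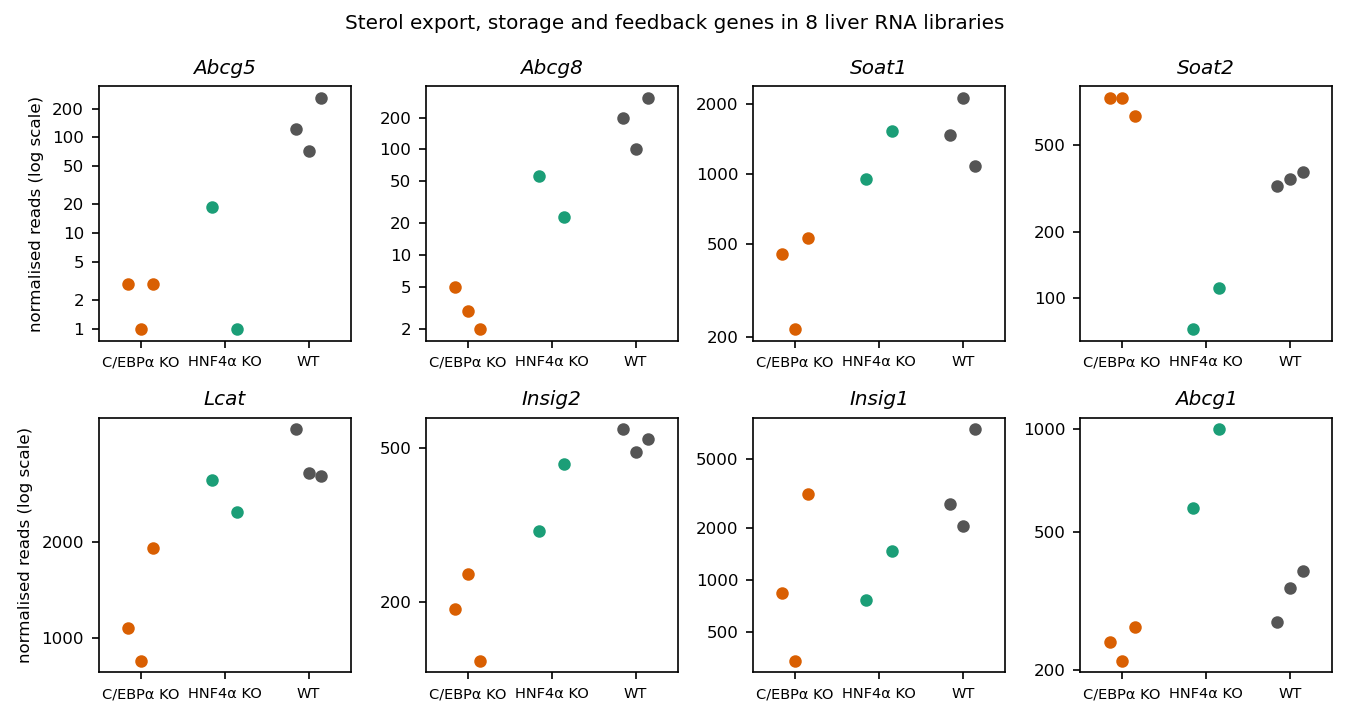
Normalised reads (y axes, log scale) of 8 sterol export, esterification and feedback genes in C/EBPα KO, HNF4α KO and WT livers, 1 point per library. Abcg5 and Abcg8 stay at 5 or below in C/EBPα KO livers, and Soat2 lies above WT in C/EBPα KO and below WT in HNF4α KO livers.

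The genes whose levels were most like the mean of the 8 measured enzymes over the 8 libraries were Tnrc6a (Pearson r 0.98), Cyp2j5 (0.98), Oxsm (0.97), 0610037P05Rik (0.97) and C9 (0.97), of 11903 genes with a mean of at least 100. Acat2, of the pathway itself, ranked 108 (0.90) and Soat2 130 (0.89). These libraries share 3 genotypes, and the HNF4α KO pair is low in all 5 genes, as in C9 with 7 and 13 normalised reads in HNF4α KO livers against 89 to 173 in WT livers. Within the enzymes, Idi1 was most like the mean of the others (r 0.93), Sc5d less so (0.52), and Dhcr7 ran the other way (-0.46).

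C/EBPα peaks near the start sites of these enzymes were most frequent around birth. A start site was called bound when a region holding a peak of each replicate (at least 1 bp overlap) lay within 1 kb of it. C/EBPα regions were present at 1 of 8 enzymes at E15.5, 6 at E18.5, 7 at P0.5, 3 at P14 and 3 at P60. The shares over all 17771 genes were 6.92%, 33.0%, 47.4%, 26.8% and 24.9% at the same stages. List sizes ranged from 13434 peaks at E15.5 to 121624 at P0.5, and their part in these shares was not tested. HNF4α regions were present at 3 of 8 enzymes at E15.5, 0 at E18.5, 2 at P0.5, 1 at P14 and 4 at P60, against 22.4%, 6.11%, 22.8%, 21.7% and 29.7% of all genes. The pair of HNF4α lists of P0.5 held the same peaks, so it counts as 1 list, with no replicate to compare.

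**Figure D4:**
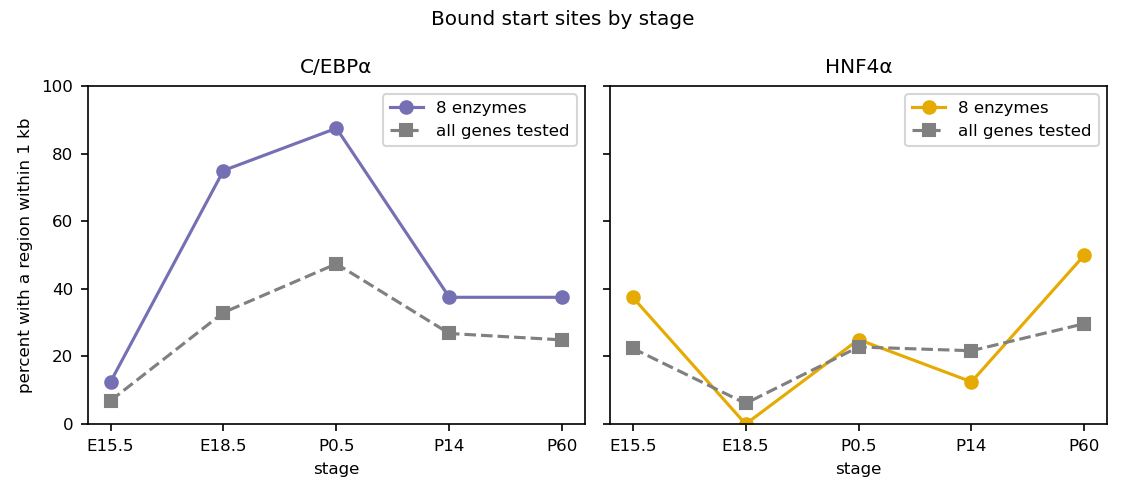
Percent of the 8 enzymes (solid) and of 17771 genes (dashed) with a region within 1 kb of the start site, by stage, for C/EBPα and HNF4α. The enzymes reach 87.5% for C/EBPα at P0.5 and 50.0% for HNF4α at P60; 1 enzyme is 12.5%.

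Cyp51 was the only enzyme of the 8 with C/EBPα at its start site at all 5 stages, as were 6.34% of all genes. Every one of the 10 C/EBPα lists held a Cyp51 peak there, within -460 to 615 bases of the start at chromosome 5, 4104746 (mm9) for the regions of both replicates. No HNF4α list held a peak within 10 kb of Cyp51, at any stage. This gene, bound by C/EBPα alone, was at 135% of the WT mean in C/EBPα KO livers and 42.4% in HNF4α KO livers, of which neither difference passed. No enzyme had HNF4α within 1 kb at all 5 stages, as 4.54% of all genes did.

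Dhcr7 had both factors at its start site, C/EBPα at E18.5, P0.5, P14 and P60 (-526 to 322 bases) and HNF4α at E15.5, P0.5, P14 and P60, while at E18.5 a peak was in 1 HNF4α list only. Within 1 kb of the start it was the enzyme of the 8 with the most stages bound by HNF4α, and it was not called in any RNA comparison. Fdps had C/EBPα at the start (-700 to 127 bases) from E18.5 to P60, a second region upstream (-1995 to -990) at the same 4 stages, and HNF4α only far upstream (-6654 to -6018) at P60. Idi1 had C/EBPα at E18.5 and P0.5 (-392 to 484) and HNF4α at E15.5 (-87 to 612), and no region of either factor at any stage elsewhere within 10 kb.

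Lss had HNF4α at its start (-763 to 471) at E15.5, P0.5 and P60, and C/EBPα there at E18.5 and P0.5. Inside the gene it had a C/EBPα region (5788 to 6481 bases downstream) at all 5 stages, which HNF4α shared at E15.5 (5893 to 6438). The RNA of Lss fell in HNF4α KO livers and was at 112% of the WT mean in C/EBPα KO livers. Fdft1 had a C/EBPα region upstream (-6496 to -5650) at all 5 stages, which HNF4α shared at E15.5 and P60. At its start it had C/EBPα at E18.5 and P0.5 (-1059 to -510), C/EBPα also nearer at P0.5 (-477 to -20), and HNF4α at P60 (-796 to 158). Inside Fdft1, HNF4α had a region at E15.5, P0.5, P14 and P60 (9125 to 12351). C/EBPα had regions inside it (2719 to 4068 and 9189 to 10371) at E18.5, P0.5, P14 and P60. HNF4α shared the first at P0.5 and the second at P0.5, P14 and P60. Sqle had C/EBPα at the start (-470 to 10) at P0.5. Regions of both factors lay inside the gene (4403 to 5421), with HNF4α at E15.5 and P0.5 and C/EBPα at E18.5, P0.5 and P60. Nearer the start, Sqle had HNF4α at P60 (1899 to 2573) and C/EBPα at E18.5 and P0.5 (1869 to 2361).

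Sc5d, lower in both knockouts, had most of its regions of both factors more than 1 kb from the start. A region upstream of the annotated start (-7796 to -6200 bases, chromosome 9, 42078583 to 42080179) held HNF4α at all 5 stages and C/EBPα at E18.5, P0.5, P14 and P60. A second HNF4α region lay inside the gene (3140 to 4027) at E15.5, P0.5, P14 and P60, and HNF4α reached the start (-542 to 368) at P60. No C/EBPα region of both replicates lay within 1 kb of the start. The nearest such regions were at -1475 to -1025 (P0.5), 1970 to 2338 (E18.5) and 2532 to 2843 (P0.5). Over the start itself, C/EBPα had a peak in P0.5 replicate 1 only (-179 to 147). Starts are those of the deposited annotation, and another start of a gene would shift these distances. Over a 10 kb window 8 of 8 enzymes had C/EBPα at P0.5, where 78.1% of all genes did, and 6 of 8 had HNF4α at P60, where 48.2% of all genes did.

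**Figure D5:**
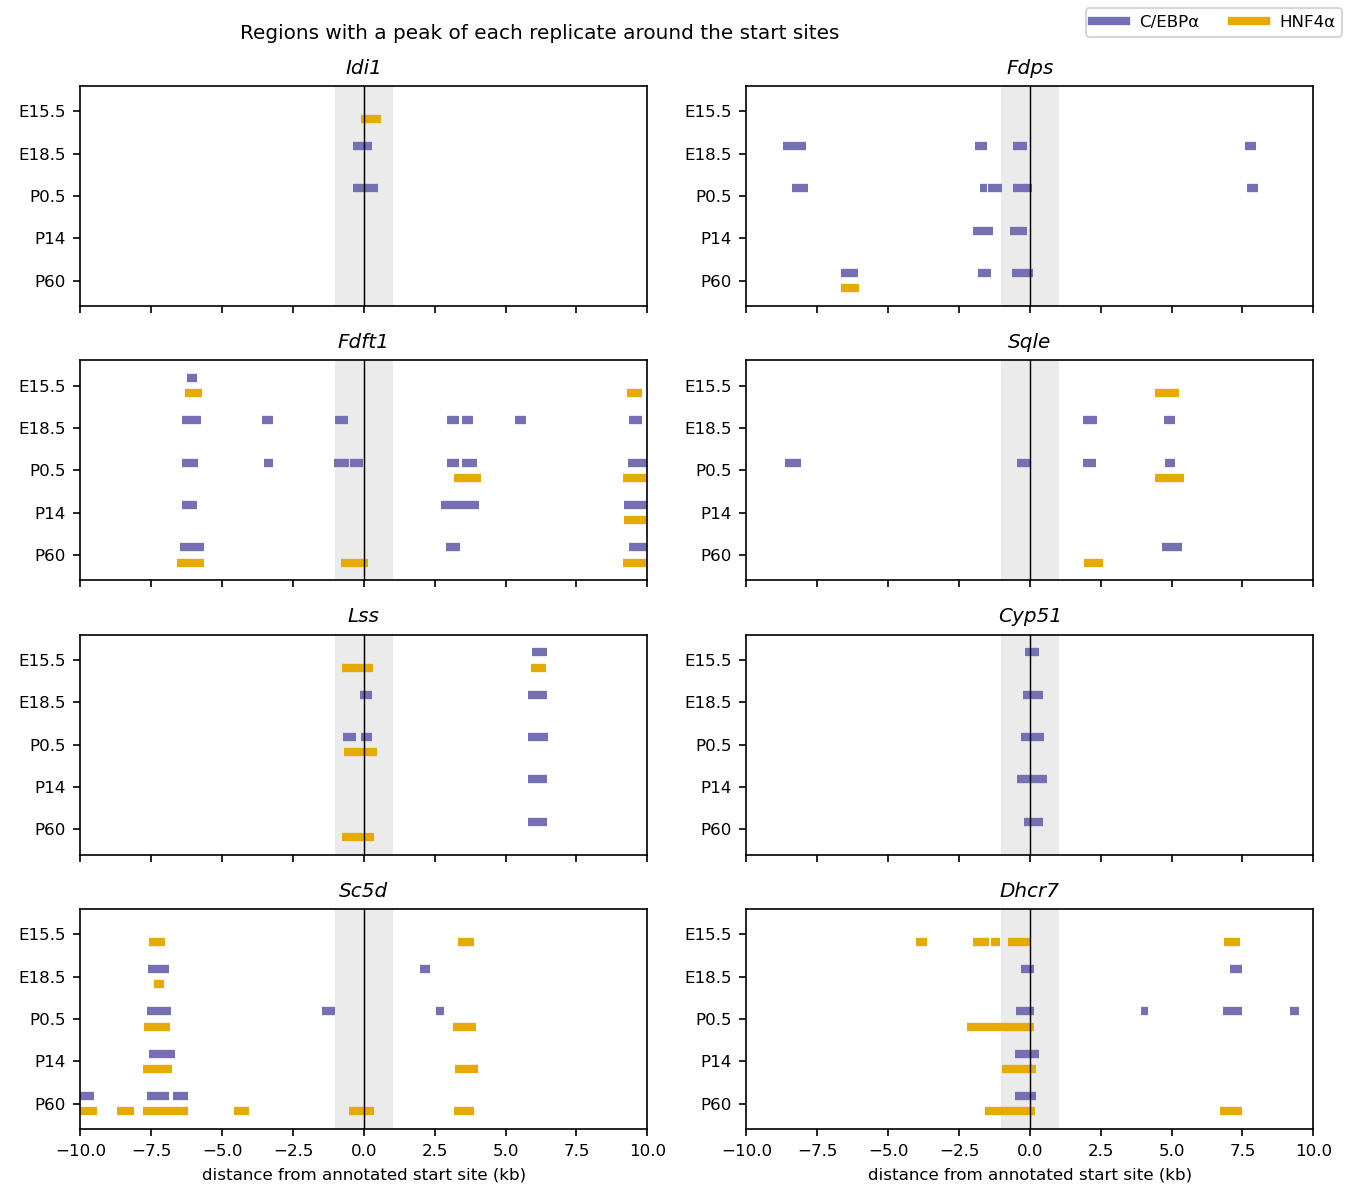
Regions with a peak of each replicate (bars) within 10 kb of the annotated start of each enzyme, by stage (rows), with distance in kb along the direction of transcription; grey marks 1 kb either side. Cyp51 shows C/EBPα at its start in all 5 rows and no HNF4α, and Sc5d shows both factors at a region upstream, from -7796 to -6200 bases.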

How the data were processed

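RNA was measured in 8 liver libraries and C/EBPα and HNF4α binding in 20 peak lists (19 distinct); 10 polymerase II and 10 input samples were not used here. Build mm9, MACS 1.4, BWA, TopHat2, DESeq and Cufflinks are named, with no roles, per the submitters' processing notes. The RNA values deposited by the authors are a score per gene: DESeq-normalized reads, per the name of the deposited table, rounded to whole numbers, so raw depth is not known. The GC content of each gene is a fraction listed in the deposited table. Annotation version, peak threshold and control are not given in the sources used here; deposited peaks are positions only (every score is 0), called per replicate.

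Genes with at least 10 in at least 2 libraries were kept (17771 of 37583). Log2(value + 1) was fitted with limma 3.58.1 in R 4.3.3, with a variance trend, all 8 libraries in 1 fit and 3 contrasts, 2-sided; a call is a p under 0.05 after Benjamini-Hochberg adjustment across the kept genes; log2 changes understate those of low genes. The script was tested on simulated data. Peaks were joined and counted around annotated starts in Python. Coordinates are 1-based.

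Named genes are the members, all called genes of the 2 sterol lists with Srebf2 and Insig1, and the 5 most alike; some genes this rule takes are not reported here; members and lists were chosen with earlier results of these data known. Same-numbered libraries of different groups did not deviate together (correlations -0.23 to 0.19), so no pairing was used. Some libraries of different numbers did: WT replicate 3 and C/EBPα KO replicate 1 had a correlation of 0.49. WT replicate 2 and C/EBPα KO replicate 1 had -0.42. A fit without WT replicate 3 and C/EBPα KO replicate 1 was therefore among the alternatives. Alternatives covered the pseudocount, filter, scaling, GC, variance model, single libraries, window and replicate rule for peaks.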

Additional observations from a re-analysis of the deposited data

How the results depend on the processing

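In the 3 comparisons of the 8 enzymes, the counts moved with the setting. In C/EBPα KO against WT (1 called) the count was 0 with no filter on low values, library totals, quantile scaling, the replicate block, and without WT replicate 3 together with C/EBPα KO replicate 1, and 0 to 1 when 1 library was left out. In HNF4α KO against WT (2 called) it was 1 with no filter and 1 with the replicate block, 0 without that pair, 4 with only the 2 genotypes compared, and 0 to 4 with 1 library left out. In C/EBPα KO against HNF4α KO (3 called) it was 1 with no filter, 5 with library totals, 0 with the replicate block, 0 without that pair, 1 with only the 2 genotypes, and 0 to 3 with 1 library left out; the cause was not tested.

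Of the 25 sterol regulation and transport genes, Npc1l1 included, 6 were called in C/EBPα KO against WT, with 2 to 6 when 1 library was left out, 4 with library totals and 2 with the replicate block. In HNF4α KO against WT 2 were called, with 1 to 3 when 1 library was left out, and between the knockouts 3, with 1 to 7.

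Over all genes, C/EBPα KO against WT (666 called) gave 219 without that pair and 309 to 801 with 1 library left out. HNF4α KO against WT (836) gave 486 with the replicate block, 350 without the pair, 1267 with only the 2 genotypes and 212 to 1345 with 1 library left out. C/EBPα KO against HNF4α KO (619) gave 403 with no filter, 288 with the replicate block, 136 without the pair, 320 with only the 2 genotypes and 86 to 849 with 1 library left out. The replicate numbers did not pair the libraries, so these block counts describe a number shared by name.

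Some differences that did not pass turned sign. With library totals, C/EBPα KO minus WT was 0.38 for Dhcr7 and 0.031 for Abcg1, and C/EBPα KO minus HNF4α KO was 0.34 for Dhcr7, 0.31 for Srebf2 and 0.45 for Insig1. With quantile scaling Dhcr7 was 0.011 in C/EBPα KO minus WT. With a GC curve removed, Dhcr7 was -0.069 in HNF4α KO minus WT. With 1 library left out, C/EBPα KO minus WT ran from -0.13 to 0.33 for Fdft1, -0.19 to 0.57 for Lss, -0.24 to 0.10 for Dhcr7 and -0.046 to 0.48 for Srebf2. HNF4α KO minus WT ran from -0.66 to 0.020 for Soat1. C/EBPα KO minus HNF4α KO ran from -2.66 to 0.67 for Abcg5 and -0.98 to 0.62 for Insig1.

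Enzymes bound by C/EBPα numbered 3 at E15.5, 6 at P14 and 7 at P60 in a 10 kb window (19.9%, 49.6% and 50.5% of all genes), 5 at P60 in a 5 kb window (40.1%), and 5 at P14 and 7 at P60 when 1 replicate sufficed (36.0% and 40.9%). For HNF4α a 5 kb window gave 5 at E15.5, 5 at P0.5 and 2 at P14 (38.3%, 32.7% and 31.0%), a 10 kb window 6 at E15.5, 1 at E18.5, 5 at P0.5 and 3 at P14 (49.6%, 19.8%, 41.1% and 39.2%), and 1 replicate 5 at E15.5, 2 at E18.5 and 2 at P14 (35.6%, 13.2% and 32.4%). Raw depth is not known, and 2 HNF4α KO libraries limit the precision.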
